A study of Homo sapiens with 6 samples.

Results

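The MCM helicase and DNA replication genes described here are MCM2, MCM3, MCM4, MCM5, MCM6, MCM7, PCNA, RRM1, RRM2 and HELLS. They were taken by name, as protein-coding rows of the deposited count table, and all 10 were found among its 60648 genes, of which 19954 are protein-coding. The study measured ribosome footprints and matched input RNA in A549 cells, an established human lung adenocarcinoma line, to ask how loss of METTL16, an RNA methyltransferase, alters translation when nutrients are withdrawn. The 3 conditions were cells with a control shRNA in medium without amino acids, cells with a METTL16 shRNA in the same starvation medium, and cells with the METTL16 shRNA in complete medium, each kept for 2 h and given cycloheximide for 5 min. The control condition in complete medium was not analysed here, so the knockdown can be compared with its control only during starvation, and starvation with complete medium only in knockdown cells. The labels do not say whether the shRNA cells were clones or pools.

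Each condition gave 1 input and 1 footprint library, 6 in all, so no difference below has a replicate check. Totals were 465303 to 775676 counts in input RNA and 518955 to 781831 in footprints, lowest in both assays in the starved knockdown. METTL16 itself had 44 input reads in starved control cells, 9 in starved knockdown cells and 19 in knockdown cells in complete medium, and 60, 3 and 7 footprints in the same order. Of 9 markers of A549 and lung epithelial cells, 8 to 9 had reads in each library. All 4 erythroid markers were at 0 in every library. Of 6 leukocyte markers, PTPRC, CD3E, LYZ and CD68 were at 0 in every library and 1 to 2 had reads in each. The leukocyte list summed to at most 12.3 CPM (scaled counts, as defined below). Of 6 fibroblast markers, 2 to 3 had reads in each library, and that list summed to at most 35.7 CPM. Nuclear protein-coding genes took 77.0 to 82.6% of input counts and 79.0, 64.4 and 66.0% of footprint counts in starved control, starved knockdown and complete-medium knockdown cells. The part of this difference in the results was not tested.

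The proteins of MCM2 to MCM7 form a ring with 1 copy of each subunit, which is loaded on origins of replication and unwinds DNA ahead of the polymerases. PCNA is the sliding clamp that holds polymerases on the template, and RRM1 and RRM2 are the large and small subunits of ribonucleotide reductase, which makes the deoxynucleotides. HELLS is a chromatin remodelling ATPase needed for DNA methylation of repeats. Genes of this kind are transcribed around the entry into S phase under E2F factors, and in growing tumour cells such as A549 they mark cells that are replicating.

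The promoters are shown because an E2F element is the sequence feature that the literature ties to this group. The genes were taken by name, not by promoter sequence. Since genes of this kind are already known for E2F control, the shares below describe them and test nothing. Of the 10 genes, 8 had an entry in the RefSeq promoter table (GRCh38.p14). The E2F forms TTTCCCGC, TTTCGCGC, TTTGCCGC and TTTGGCGC were searched on both strands, with overlapping matches counted, in the 250 bases before each start. At least 1 was present in 5 of the 8 (MCM3, MCM6, MCM7, PCNA and HELLS) and in 979 of all 35116 promoters in the table, or 2.79%. CCAAT, searched the same way, was present in 7 of the 8 genes and in 32.0% of all promoters. No E2F form was found in these letters for MCM2, RRM1 and RRM2. The stretches below run 5′ to 3′ along the gene's strand, with E2F matches in capitals. The HELLS stretch is chr10:94545688-94545787 (plus strand), the MCM6 stretch chr2:135876484-135876603 (minus strand), the MCM7 stretch chr7:100101398-100101457 (minus strand) and the PCNA stretch chr20:5126623-5126722 (minus strand).
HELLS: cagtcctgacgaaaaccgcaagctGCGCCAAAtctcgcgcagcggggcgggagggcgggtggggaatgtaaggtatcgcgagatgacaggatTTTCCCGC
MCM6: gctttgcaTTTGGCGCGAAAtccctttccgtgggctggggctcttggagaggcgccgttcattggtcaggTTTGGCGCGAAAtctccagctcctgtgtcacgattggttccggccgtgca
MCM7: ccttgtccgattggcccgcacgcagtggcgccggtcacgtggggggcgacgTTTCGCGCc
PCNA: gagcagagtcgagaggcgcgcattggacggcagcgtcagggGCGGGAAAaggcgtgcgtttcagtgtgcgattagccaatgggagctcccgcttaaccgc
In HELLS the matches begin 76 and 8 bases before the start. MCM6 holds 4 matches in 2 places, since in each place the forms on the opposite strands overlap, at 152 and 148 and at 90 and 86 bases before the start. The MCM7 match shown begins 9 bases before the start and the PCNA match 59 bases before it. A match describes the sequence only; no binding was measured.

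Counts were scaled to CPM, the usual unit of reads relative to library size, with TMM factors, which set the libraries of an assay to a common level of most genes. Translation efficiency is the ratio of scaled footprints to scaled input RNA. Ratios between conditions are log2 values with a 95% interval that covers counting error only, and reads amplified by PCR without molecular identifiers are not independent molecules. A gene was called when it differed at least 2-fold with an interval excluding 0, and only genes averaging 30 reads or more in the assays concerned were considered. MCM6 was below that mean in input RNA and so enters neither the RNA nor the translation efficiency counts of called genes, which leaves 9 genes there and 10 in footprints.

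During starvation most of these genes were not called between knockdown and control, and HELLS alone was called in all 3 measures, of which translation efficiency is computed from the other 2. A gene not called can still differ, as MCM5 did in RNA at -0.91 (-1.54 to -0.33). In input RNA 1 of 9 was called higher (HELLS) and 0 lower, where 5.03% of all 3876 genes measured were called higher and 4.57% lower. The median log2 ratio of the 9 was -0.09, beside 0.04 over all genes, with 3 above 0 and 6 below. In bulk RNA, fewer replicating cells and less of a transcript per cell cannot be told apart. In footprints 0 of 10 were called higher and 1 lower (HELLS), against 3.96% and 3.03% of 3431 genes, with a median of -0.23 beside 0.01. In translation efficiency 1 of 9 was called higher (MCM2) and 1 lower (HELLS), against 4.88% and 5.48% of 2866 genes, with a median of 0.12 beside 0.00. Scaling by total counts lowered every ratio of this comparison by a common amount, 0.12 for RNA, 0.35 for footprints and 0.23 for translation efficiency, and it brought the numbers of all genes called higher and lower from 136 and 104 to 57 and 323 for footprints, from 140 and 157 to 71 and 314 for translation efficiency, and from 195 and 177 to 133 and 236 for RNA. Under it MCM2 was no longer called in translation efficiency (0.99), and MCM5 was called lower in input RNA (-1.03).

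Between starved and complete medium, both in knockdown cells, no member other than HELLS differed 2-fold in any measure. In input RNA 0 of 9 were called in either direction, against 3.02% of all genes higher and 4.15% lower, and the median was 0.13 beside 0.01. In footprints 0 of 10 were called in either direction, against 5.39% and 6.73%, and the median was -0.02 beside 0.01. In translation efficiency 0 of 9 were called higher and 1 lower (HELLS), against 6.91% and 9.56%, and the median was -0.26 beside 0.06. Both comparisons use the starved knockdown libraries, so their values stand side by side and are not counted as agreement. With so few members, none of these counts separates the group from the background.

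**Figure D1:**
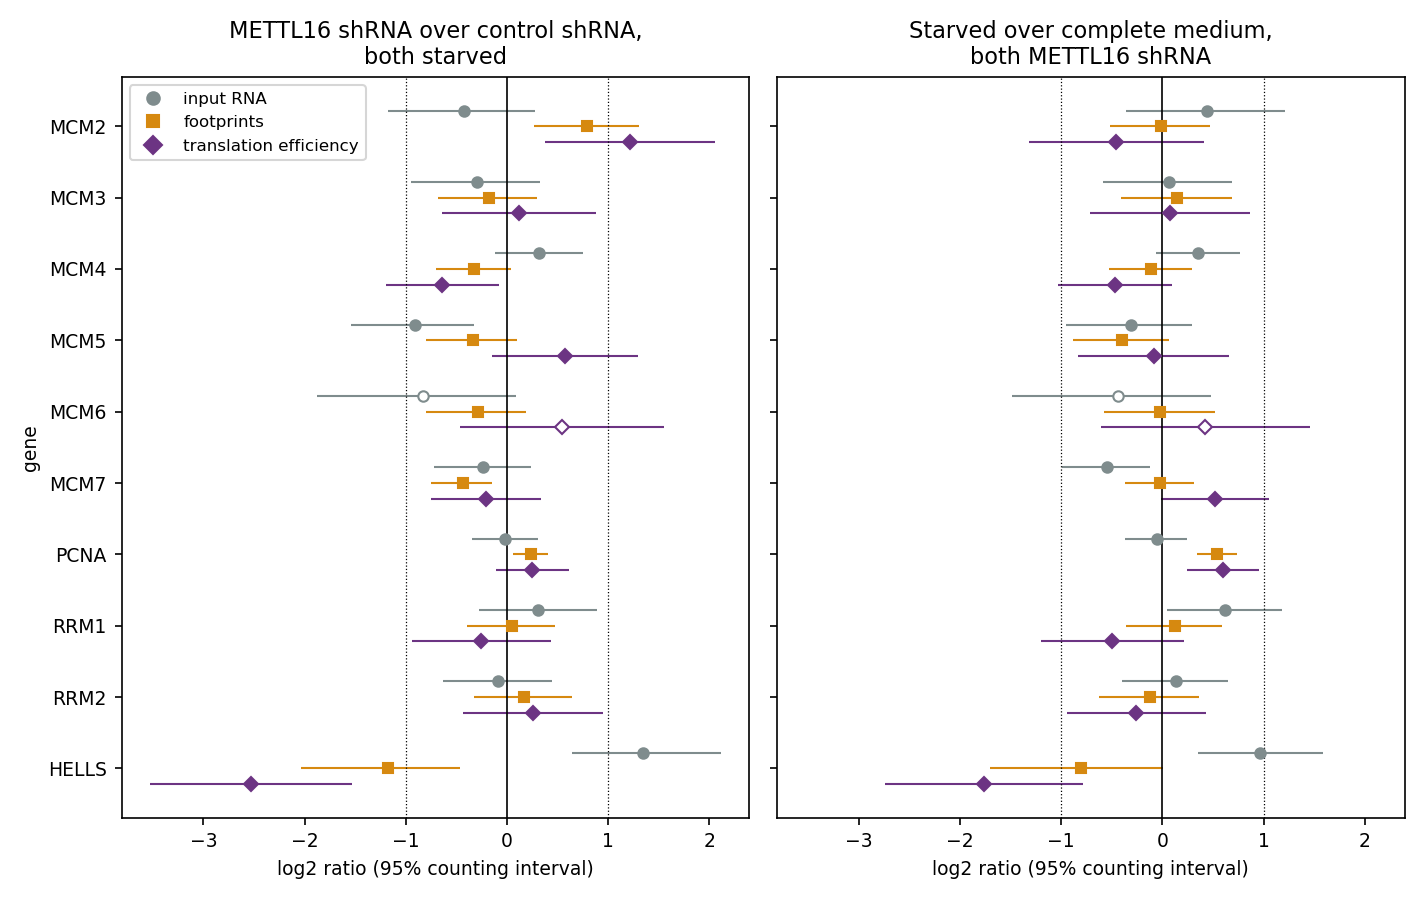
Log2 ratios of the 10 genes (x axis, with 95% counting intervals) in input RNA, footprints and translation efficiency, for knockdown over control in starvation (left) and starved over complete medium in knockdown cells (right); dotted lines mark 2-fold and open symbols values below the count minimum. HELLS lies to the right in input RNA (1.35 and 0.97) and to the left in translation efficiency (-2.53 and -1.77), while most other genes lie between the dotted lines.

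The helicase subunits were first taken as a sum. MCM2 to MCM7 together had 400 input reads in starved control cells, 264 in starved knockdown cells and 462 in knockdown cells in complete medium, which is 700, 582 and 617 CPM. Their footprints numbered 992, 440 and 629, or 1074, 915 and 968 CPM. The control library was the highest in both assays and the starved knockdown the lowest. Helicase RNA in starvation was 0.832 times the control level after knockdown, a log2 ratio of -0.27 (-0.50 to -0.04), and helicase footprints were 0.852 times it, -0.23 (-0.40 to -0.07). The quartiles of this ratio over all genes measured were -0.35 and 0.38 in RNA and -0.32 and 0.35 in footprints, so both sums lay between them. MCM4 in RNA (0.32) and MCM2 in footprints (0.79) were above 0, and the other subunits were below 0 in each assay. Translation efficiency of the sum differed by 0.03 (-0.24 to 0.31), so RNA and footprints were lower by similar factors. DESeq2 size factors, TMM factors from all genes and total counts each placed the RNA and footprint ratios of this comparison lower still. Against complete medium the sum differed by -0.08 in RNA (-0.31 to 0.14), -0.08 in footprints (-0.26 to 0.10) and 0.00 in translation efficiency (-0.28 to 0.28), so a difference within these bounds was not detectable at this depth.

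MCM2 (ENSG00000073111, chromosome 3, 127598411 to 127622436) encodes a subunit whose N-terminal tail also binds histones. It had 46, 27 and 33 input reads in starved control, starved knockdown and complete-medium knockdown cells, or 80.5, 59.5 and 44.1 CPM. Its footprints numbered 69, 62 and 85, or 74.7, 129 and 131 CPM. Both knockdown libraries were thus above the control in footprints and below it in RNA, and the 95% intervals of the control footprints (58.1 to 94.5 CPM) did not reach those of either knockdown library (from 98.8 and 104). The knockdown over control ratio in starvation was -0.42 in RNA (-1.18 to 0.28), 0.79 in footprints (0.27 to 1.30) and 1.21 in translation efficiency (0.37 to 2.05), where 2789 of 2866 genes were lower. The footprint ratio was 0.44 with total counts and -0.27 in the authors' deposited TPM. Starved over complete medium gave 0.44 in RNA (-0.36 to 1.21), -0.02 in footprints (-0.52 to 0.47) and -0.46 in translation efficiency (-1.32 to 0.41).

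MCM3 (ENSG00000112118, chromosome 6, 52264015 to 52284742), which sits between MCM5 and MCM7 in the ring, was the steadiest subunit in translation efficiency. It had 56, 36 and 57 input reads (98.0, 79.4 and 76.1 CPM) and 116, 53 and 65 footprints (126, 110 and 100 CPM) in the same order of conditions. The control was highest in both assays, with overlapping intervals throughout. Its log2 ratios lay between -0.30 and 0.14 over both comparisons and all 3 measures, and each interval held 0.

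MCM5 (ENSG00000100297, chromosome 22, 35400140 to 35455031), which with MCM2 forms the gate through which DNA enters the ring, had 81, 34 and 70 input reads, or 142, 74.96 and 93.5 CPM. The starved knockdown was the lowest, and its interval (51.9 to 105) lay below that of the control (113 to 176). Footprints numbered 146, 60 and 107, or 158, 125 and 165 CPM, with overlapping intervals. Knockdown over control was -0.91 in RNA (-1.54 to -0.33), short of the 2-fold needed for a call. The footprint ratio was -0.33 (-0.80 to 0.10) and that of translation efficiency 0.57 (-0.15 to 1.29). Starved over complete medium gave -0.31, -0.40 and -0.09 in RNA, footprints and translation efficiency, each with an interval that held 0.

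MCM4, MCM6 and MCM7 form a subcomplex that has helicase activity of its own in vitro. MCM4 (ENSG00000104738, chromosome 8, 47960941 to 47978160) had 90, 89 and 115 input reads (158, 196 and 154 CPM) and 207, 86 and 126 footprints (224, 179 and 194 CPM). It was the only subunit whose RNA was highest in the starved knockdown, and its footprints were lowest there. Neither difference from the control went beyond counting error: RNA gave 0.32 (-0.12 to 0.76) and footprints -0.32 (-0.71 to 0.04). Their combination in translation efficiency was -0.64 (-1.19 to -0.08), below 2-fold. Against complete medium, translation efficiency was -0.47 (-1.03 to 0.09).

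MCM6 (ENSG00000076003, chromosome 2, 135839626 to 135876443) had the fewest input reads over the conditions, 32, 14 and 32 (56.0, 30.9 and 42.7 CPM), and 120, 51 and 70 footprints (130, 106 and 108 CPM). Its RNA ratio of knockdown over control was -0.83 with a wide interval (-1.88 to 0.09), and its footprint ratio -0.29 (-0.80 to 0.19). Starved over complete medium was -0.02 in footprints (-0.57 to 0.52). A 2-fold difference in its RNA was not detectable at this depth.

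MCM7 (ENSG00000166508, chromosome 7, 100092728 to 100101397) carries the microRNA genes MIR25, MIR93 and MIR106B inside it and overlaps AP4M1. These rows held few counts: AP4M1 had at most 15 reads in a library and each microRNA at most 4. MCM7 had 95, 64 and 155 input reads (166, 141 and 207 CPM) and 334, 128 and 176 footprints (362, 266 and 271 CPM). RNA was highest in complete medium, while footprints were highest in the control and similar in the 2 knockdown libraries. Knockdown over control was -0.23 in RNA (-0.72 to 0.24), -0.44 in footprints (-0.75 to -0.14) and -0.21 in translation efficiency (-0.75 to 0.34). Starved over complete medium was -0.55 for RNA (-0.997 to -0.12), -0.02 for footprints (-0.37 to 0.31) and 0.52 in translation efficiency (-0.01 to 1.05). All of these were below 2-fold.

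**Figure D2:**
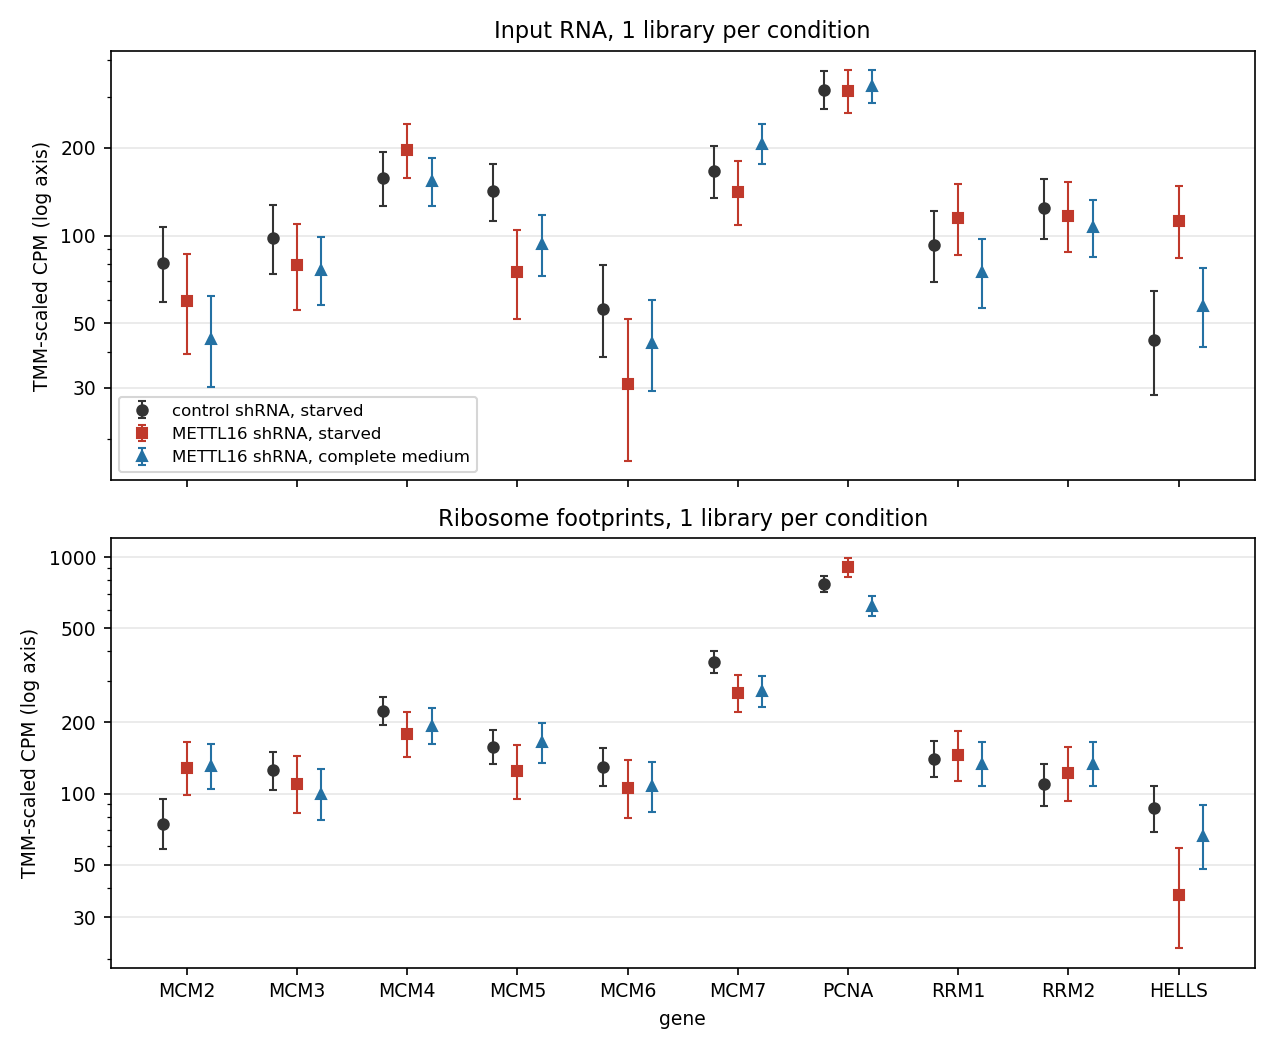
TMM-scaled CPM of the 10 genes (log axis) in input RNA (top) and footprints (bottom), 1 library per condition, with exact Poisson 95% intervals. HELLS in the starved knockdown is the highest of its 3 libraries in input RNA (112) and the lowest in footprints (37.4); PCNA is the highest gene in both assays.

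PCNA (ENSG00000132646, chromosome 20, 5114953 to 5126622) was the most abundant of the 10. It had 181, 142 and 244 input reads in starved control, starved knockdown and complete-medium knockdown cells, or 317, 313 and 326 CPM, level across the conditions. Footprints numbered 711, 435 and 404, or 770, 904 and 622 CPM. The footprint intervals of the starved knockdown (821 to 993) and of the knockdown in complete medium (562 to 685) were apart, with the starved control between them (714 to 829, which overlaps the former). Starved over complete medium was -0.06 in RNA (-0.37 to 0.25), 0.54 in footprints (0.34 to 0.74) and 0.60 in translation efficiency (0.24 to 0.95), a footprint difference beyond counting error and below 2-fold; in the authors' deposited TPM the footprint ratio was 0.26. Among all genes this translation efficiency ratio was not at the edge, since 2241 of 2866 were lower. Knockdown over control was -0.02 in RNA (-0.34 to 0.31) and 0.23 in footprints (0.06 to 0.41), and the latter became -0.12 with total counts and -0.83 in the authors' deposited TPM, so that its direction depends on the scaling. PCNA overlaps the antisense gene PCNA-AS1, and how the authors' counting treated strand is not given in the sources used here.

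Neither subunit of ribonucleotide reductase differed from control beyond counting error in any measure. RRM1 (ENSG00000167325, chromosome 11, 4094685 to 4138932) had 53, 52 and 56 input reads (92.8, 115 and 74.8 CPM) and 130, 70 and 87 footprints (141, 146 and 134 CPM). Its RNA was highest in the starved knockdown, 0.62 above complete medium (0.04 to 1.19) and 0.31 above control (-0.27 to 0.89), both below 2-fold, while its footprints differed by 0.12 (-0.35 to 0.59) and 0.05 (-0.39 to 0.48). RRM2 (ENSG00000171848, chromosome 2, 10122568 to 10211010), the subunit that varies through the cell cycle, had 71, 53 and 80 input reads (124, 117 and 107 CPM) and 101, 59 and 87 footprints (109, 123 and 134 CPM). Its ratios ranged from -0.26 to 0.26 over both comparisons and the 3 measures, and every interval held 0. The 6 rows for processed copies of RRM2 and PCNA held 10 reads in all 6 libraries together, at most 6 in any row and library, so few reads were assigned to the copies; how reads matching several places were treated is not given in the sources used here.

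HELLS (ENSG00000119969, chromosome 10, 94545788 to 94613905) was higher in RNA and lower in footprints after knockdown in starvation, beyond counting error in both. Input reads numbered 25, 51 and 43 in starved control, starved knockdown and complete-medium knockdown cells, or 43.8, 112 and 57.4 CPM. The footprints were 80, 18 and 43, or 86.6, 37.4 and 66.2 CPM. The starved knockdown was thus the highest of 3 in RNA and the lowest of 3 in footprints, and its interval did not overlap that of the control in either assay (83.7 to 148 against 28.3 to 64.6 in RNA, and 22.2 to 59.1 against 68.7 to 108 in footprints). Knockdown over control was 2.54-fold higher in RNA, a log2 ratio of 1.35 (0.64 to 2.11), and 2.27-fold lower in footprints, -1.18 (-2.04 to -0.46). Translation efficiency was 5.77-fold lower, -2.53 (-3.53 to -1.53), and 0 of 2866 genes lay below it.

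Against knockdown cells in complete medium, HELLS RNA was 1.95-fold higher in starvation, 0.97 (0.36 to 1.59), which falls just short of a call, and footprints were -0.80 (-1.70 to 0.00). Translation efficiency was 3.40-fold lower, -1.77 (-2.74 to -0.79), with 60 genes lower. Since the input library of the starved knockdown enters both HELLS ratios, the first was also computed with the complete-medium input library in its place. This gave -1.56 for HELLS and 1.65 for MCM2, both past the call. It sets starved footprints against RNA from complete medium and keeps the same footprint and control libraries, so it is not an independent check. The HELLS translation efficiency ratio in starvation was -2.75 with total counts, -2.55 with DESeq2 size factors and -3.15 in the authors' deposited TPM. In the authors' deposited TPM the HELLS ratio of knockdown over control was 0.88 in RNA, below 2-fold, so that its RNA call was lost there, and -2.27 in footprints.

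**Figure D3:**
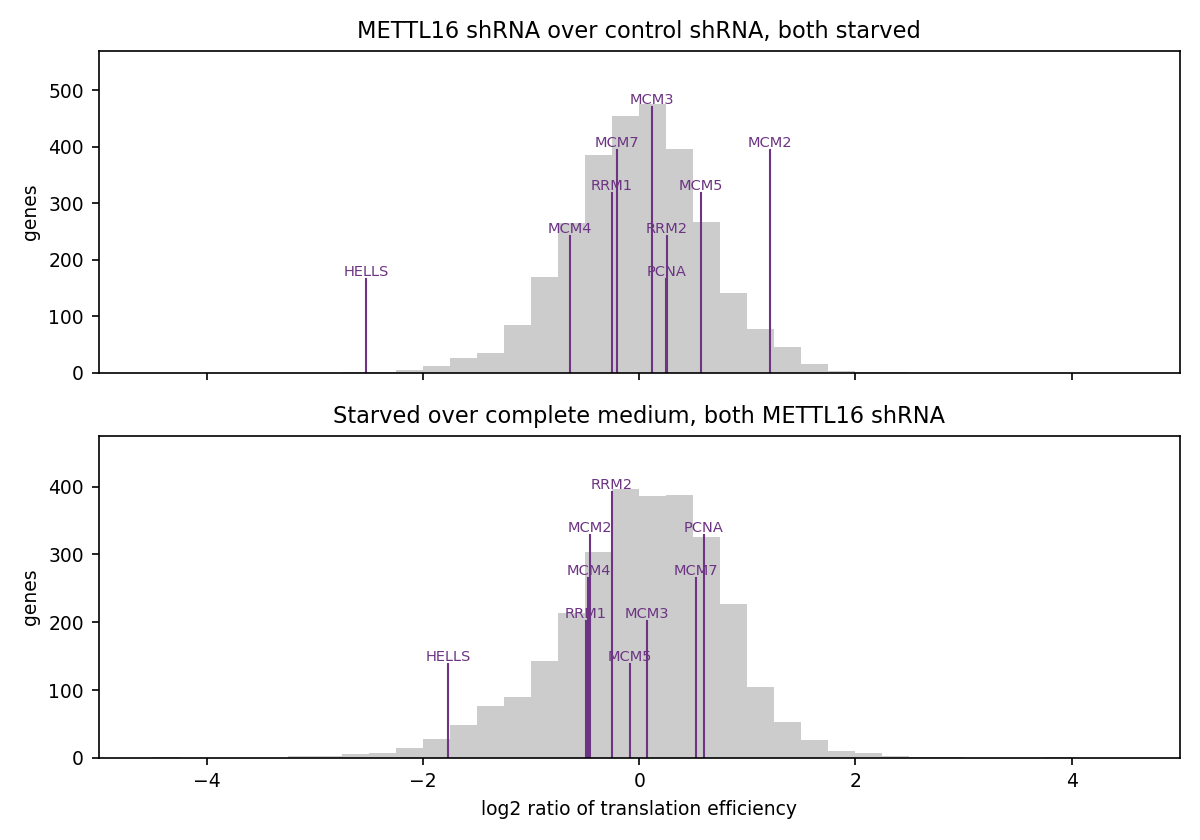
Number of genes (y axis) by log2 ratio of translation efficiency (x axis) over the 2866 genes measured, for knockdown over control in starvation (top) and starved over complete medium in knockdown cells (bottom); lines, whose heights only separate the names, mark 9 of the 10 genes (MCM6 is below the count minimum). In the top panel HELLS marks the lowest value (-2.53), MCM2 lies far to the right (1.21) and the other 7 lie between -0.64 and 0.57; in the bottom panel HELLS is at -1.77 and the others lie between -0.49 and 0.60.

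Within each condition, the level of translation efficiency was read against the median gene of that condition, on a log2 scale. Footprints cover coding sequence and coding lengths were not used, so a difference between genes in this level is not one of translation alone. Of the 10 genes, 8 were above the median gene in starved control cells, 8 in starved knockdown cells and 10 in knockdown cells in complete medium, and the medians of the 10 were 0.61, 0.68 and 0.70. MCM6, which is below the count minimum, was included here, unlike in the counts of called genes above. Its value was above the median gene and above the median of the 10 in every condition, so leaving it out would lower these medians. PCNA was at 1.34, 1.61 and 1.03, with its interval above 0 in every condition. MCM7 was at 1.17, 0.99 and 0.48, also above 0 each time, and MCM6, with fewer input reads than the minimum, at 1.26, 1.83 and 1.42. RRM2 stayed near the median gene at -0.13, 0.15 and 0.42.

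MCM2 differed most between conditions among the subunits. Its translation efficiency was at the median gene in control cells (-0.06, -0.59 to 0.48) and above it in the knockdown, at 1.18 (0.54 to 1.83) in starvation and 1.65 (1.07 to 2.23) in complete medium, where 2847 of 2866 genes were lower. HELLS was at 1.02 (0.38 to 1.67) in control cells, above 2594 genes. After knockdown it was at -1.48 (-2.24 to -0.71) in starvation, above only 199 genes, and at 0.30 (-0.31 to 0.91) in complete medium. The MCM2 to MCM7 sum stayed at 0.67, 0.74 and 0.74.

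**Figure D4:**
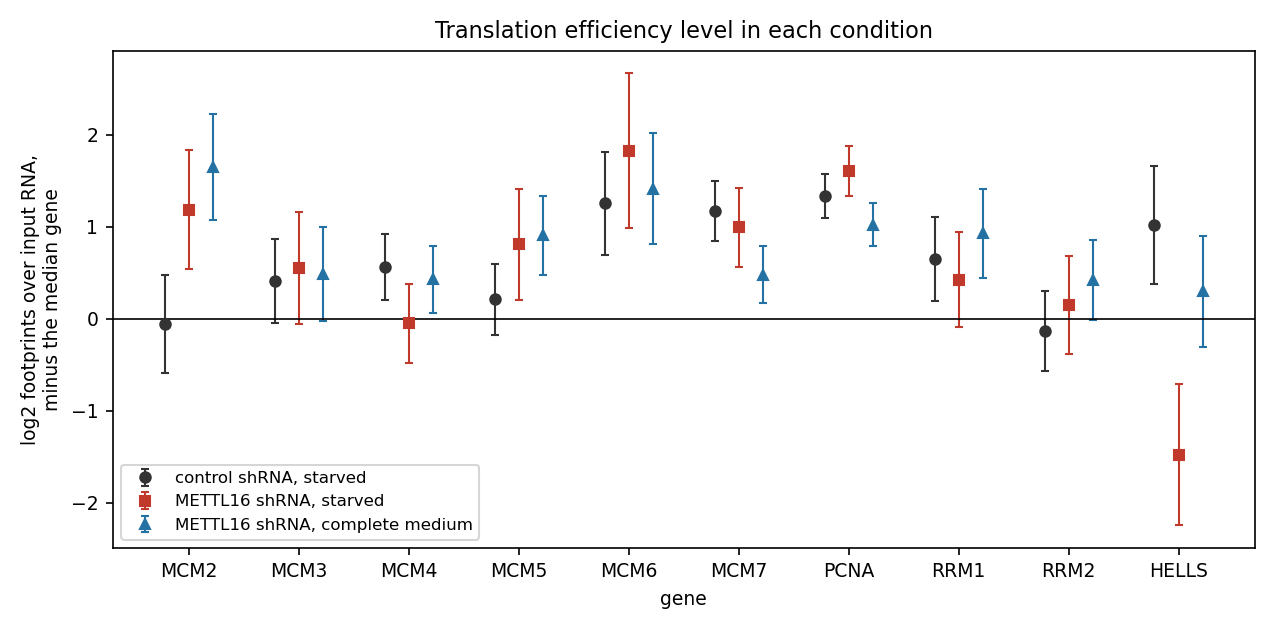
Log2 translation efficiency of each gene minus that of the median gene (y axis, 0 is the median gene) in each condition, with 95% counting intervals. Most genes lie above 0 in all 3 conditions; HELLS in the starved knockdown (-1.48) is far below the rest, and MCM2 in the starved control (-0.06) is below its own knockdown values.

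The balance among the helicase subunits was also examined, since the complex holds 1 copy of each. MCM2 took 6.96% of the MCM2 to MCM7 footprints in starved control cells (exact binomial interval 5.45 to 8.72), 14.1% in starved knockdown cells (11.0 to 17.7) and 13.5% in knockdown cells in complete medium (10.9 to 16.4). Both knockdown shares lay above the control interval. In input RNA the MCM2 share was 11.5%, 10.2% and 7.14%. These shares do not depend on the scaling between libraries. The MCM4 share of input reads was 22.5% (18.5 to 26.9), 33.7% (28.0 to 39.8) and 24.9% (21.0 to 29.1) in the same order of conditions, and its footprint share was 20.9%, 19.5% and 20.0%. MCM7 took the largest share of footprints in every condition, at 33.7%, 29.1% and 28.0%.

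Divided by the deposited gene length (merged exons, untranslated parts included), MCM7 was the highest subunit in all 6 libraries. The lowest was MCM6 in input RNA of both starved conditions, MCM2 in input RNA of complete medium and in control footprints, and MCM5 in footprints of both knockdown conditions. The highest subunit exceeded the lowest by 2.802-fold in control input RNA and 5.20-fold in control footprints, by 4.31-fold and 3.54-fold in the starved knockdown, and by 5.05-fold and 2.73-fold in complete medium. Footprints cover coding sequence, so this length is only an approximate divisor for them.

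**Figure D5:**
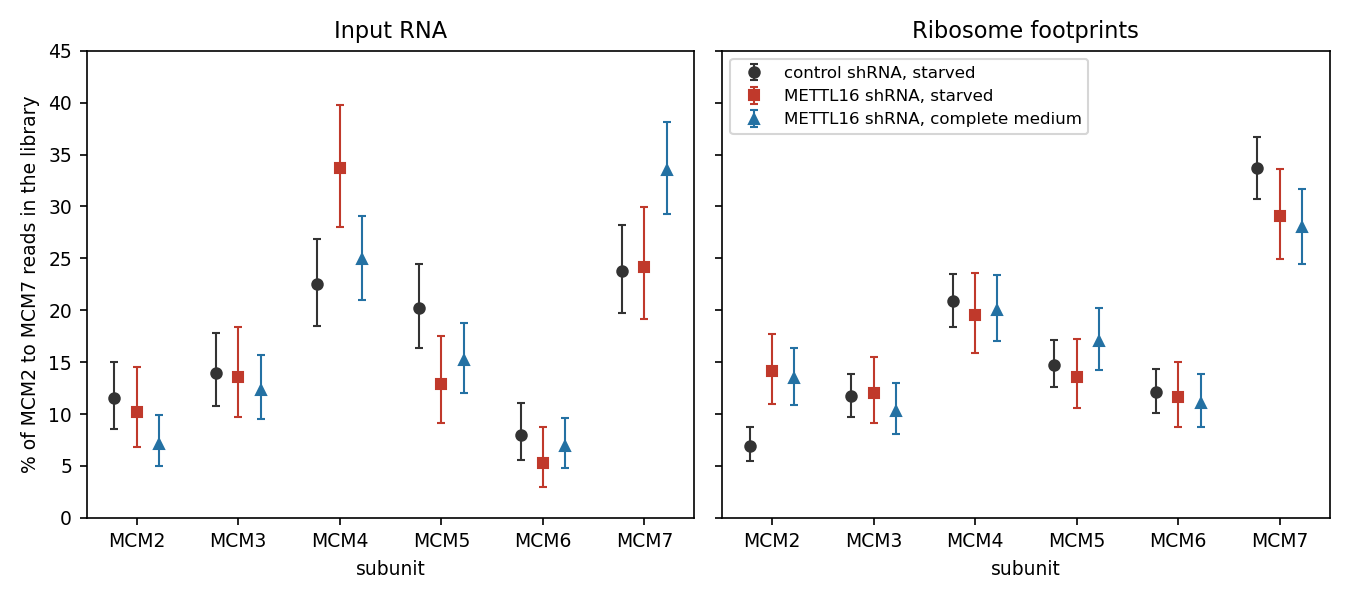
Share of the MCM2 to MCM7 reads in each library that fell in each subunit (y axis, %), in input RNA and footprints, with exact binomial 95% intervals. The MCM2 footprint share is 6.96% in the starved control and 14.1% and 13.5% in the knockdown; the MCM4 input share is highest in the starved knockdown at 33.7%.

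On the same scale of CPM per kilobase, PCNA was first and MCM7 second of the 10 genes in all 6 libraries, with PCNA at 548.7 and MCM7 at 82.4 in control footprints. HELLS was last in 5 of the 6 libraries, at 8.53 in control footprints, and in the sixth, input RNA of the starved knockdown, MCM6 was last at 7.46 and HELLS was at 11.1. This order depends on the deposited length, which is 10150 bases for HELLS and 1403 for PCNA. By CPM alone HELLS was above MCM2 in control footprints (86.6 against 74.7) and in complete-medium input RNA (57.4 against 44.1). It remained lowest in control input RNA and in footprints of both knockdown conditions. Neighbours in this order were mostly indistinguishable. Of 9 neighbouring pairs, 3, 2 and 3 differed beyond counting error in input RNA of starved control, starved knockdown and complete-medium knockdown cells, and 5, 4 and 4 in footprints. MCM3, MCM4, MCM6 and RRM1 lay between 31.4 and 34.5 in control footprints and did not differ as neighbours.

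The genes whose profile over the 6 libraries was most like the mean of MCM2 to MCM7 were sought among 2824 genes outside the group, by the root mean square distance of log2 CPM centred on each gene's mean. The nearest were ITPA at 0.08, MDH2 at 0.09, EIF3K at 0.10, EIF3I at 0.10 and PSMD13 at 0.10, and the median distance of all genes was 0.57. ITPA had 41, 25 and 48 input reads and 98, 48 and 60 footprints. Of the members, MCM3 (0.18) and MCM5 (0.19) were nearest, with 51 and 64 genes nearer than they were, and HELLS was farthest at 0.73, with 2019 genes nearer. The helicase subunits are part of the mean they are measured against.

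Other genes of DNA replication were read as lists, whose background shares are those given above. Of 24 genes of origin licensing and helicase activation, only 4 had enough input reads, and GINS1, a subunit of the GINS complex that completes the active helicase, was called lower in the knockdown. It had 53, 14 and 47 input reads, a ratio of -1.55 (-2.55 to -0.72), and 65, 2 and 14 footprints, below the minimum, with a ratio of -3.77 (-7.16 to -2.17). Of 12 genes of the polymerases and primase, 4 had enough input reads, and POLD1, the catalytic subunit of polymerase delta, was called lower in the knockdown at -1.36 (-2.30 to -0.57), with 53, 16 and 23 reads. In footprints 3 and 1 genes of the 2 lists were measured, and in translation efficiency 2 and 1. None was called higher in either comparison, which says little with so few genes.

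Of 20 genes of clamp loading, single-strand binding and the lagging strand, 4 were measured in input RNA and 11 in footprints. For knockdown over control in starvation, the median footprint ratio of the 11 was -0.22, with 3 above 0 and 8 below, and RFC4, a subunit of the loader that places PCNA on DNA, was called lower at -1.11 (-2.03 to -0.35; 68, 16 and 26 footprints). For starved over complete medium, RPA3, the small subunit of the single-strand binding protein, was called higher in footprints at 1.21 (0.53 to 1.93; 78, 50 and 29 footprints). FEN1, the nuclease that trims Okazaki fragments on PCNA, was called higher in translation efficiency at 1.04 (0.26 to 1.82). It was not called in footprints, at 0.26 (-0.25 to 0.77), or in RNA, at -0.78 (-1.46 to -0.17; 31, 29 and 83 reads).

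Nucleotide supply was the best covered list, with 16 of 20 genes measured in input RNA and translation efficiency. For knockdown over control in starvation, 2 were called higher in RNA and 3 lower in translation efficiency, whose median was -0.40, with 3 genes above 0 and 13 below. RRM2B, the alternative small subunit of ribonucleotide reductase induced by p53, was higher in RNA at 1.15 (0.45 to 1.90; 27, 48 and 25 reads) and lower in translation efficiency at -1.07 (-2.06 to -0.07). MTHFD1, of folate metabolism, was higher in RNA at 1.01 (0.41 to 1.64) and lower in translation efficiency at -1.10 (-1.83 to -0.37). PAICS, of purine synthesis, was called in translation efficiency, at -1.07 (-1.65 to -0.49). None of these 3 was called in footprints. The footprint ratios were 0.09 (-0.73 to 0.84) for RRM2B, -0.09 (-0.56 to 0.36) for MTHFD1 and -0.38 (-0.87 to 0.08) for PAICS. Each translation efficiency ratio holds the RNA ratio, so for RRM2B and MTHFD1 the 2 calls are not separate findings.

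Against complete medium, where the starved knockdown libraries enter again, 3 genes were called lower in translation efficiency, RRM2B at -1.81, PAICS at -1.42 and MTHFD1 at -1.19. RRM2B (1.65) and PAICS (1.01) were called higher in RNA there. Footprints of RRM2B, PAICS and MTHFD1 were not called, at -0.16, -0.42 and -0.34, and each interval held 0. TK1, the thymidine kinase of S phase, was called higher in translation efficiency, at 1.15 (0.62 to 1.68). TK1 had 145, 67 and 156 input reads and 307, 152 and 130 footprints. Neither its footprint ratio of 0.66 (0.31 to 1.01) nor its RNA ratio of -0.49 (-0.93 to -0.07) was called. RRM2, the subunit that RRM2B can replace, gave 0.26 and -0.26 in translation efficiency in the 2 comparisons.

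Of 15 genes of replication-coupled chromatin, the list nearest to HELLS in function, 7 were measured in input RNA. DNMT1, the maintenance DNA methyltransferase, was called lower in RNA in both comparisons, at -1.44 (-2.38 to -0.65) against control and -1.08 (-2.01 to -0.29) against complete medium, with 56, 16 and 57 input reads. SMARCA5, the ATPase of ISWI remodellers, was called higher in RNA in the knockdown at 1.61 (0.79 to 2.54; 17, 42 and 37 reads) and lower in translation efficiency at -2.07 (-3.09 to -1.05) and, against complete medium, at -1.58 (-2.49 to -0.67). ATAD2, an ATPase with a bromodomain, was called lower in translation efficiency in the knockdown at -1.12 (-2.18 to -0.07), with 26, 31 and 64 input reads. Neither was called in footprints. Those of SMARCA5 were -0.46 (-1.17 to 0.18) against control and -0.68 (-1.41 to -0.01) against complete medium. For ATAD2 the footprint ratio against control was -0.54 (-1.40 to 0.21). The 7 genes had a median translation efficiency ratio of -0.13 against control, with 3 above 0 and 4 below.

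Regulators of the G1/S transition and mitotic genes were taken as the neighbouring phases of the cycle. Among 9 of 20 G1/S regulators measured in input RNA, RB1, which restrains E2F, was called higher in the knockdown at 1.32 (0.52 to 2.19; 20, 40 and 37 reads), and none was called lower. In footprints CCND3, a D-type cyclin, was called higher against control at 1.09 (0.88 to 1.30), and CDKN1A, an inhibitor of cyclin-dependent kinases that also binds PCNA, was called higher against complete medium at 1.04 (0.66 to 1.43). CDKN1A had 148, 148 and 97 footprints and was 0.94 above control (0.60 to 1.28), below 2-fold.

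Of 28 mitotic genes, 19 were measured in RNA and in footprints. AURKB, the kinase of the chromosomal passenger complex, was called lower in RNA against control at -1.22 (-2.28 to -0.32) and against complete medium at -1.12 (-2.17 to -0.25), with 39, 13 and 48 reads. Against complete medium CCNB2 was called lower in RNA at -1.11 (26, 21 and 76 reads). Of 17 genes measured in translation efficiency, 3 were called higher there, CCNB2 at 1.54, AURKB at 1.48 and CCNA2 at 1.33. Footprints of these 3 were not called, at 0.43 (-0.17 to 1.04), 0.36 (-0.32 to 1.04) and 0.90 (0.28 to 1.54) in that order. TOP2A, the topoisomerase that untangles replicated chromosomes, went the other way, called lower in footprints at -1.06 (-1.43 to -0.72; 254, 90 and 255 footprints) and in translation efficiency at -1.39 (-1.86 to -0.91). The medians of the 19 genes in RNA were -0.03 against control and 0.08 against complete medium, close to those of all genes.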

How the data were processed

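Ribosome footprints (RNase I digestion) and chemically fragmented input RNA were size-selected and amplified by PCR, per the labels' protocols. Per the submitters' processing notes, the tools were featureCounts 2.0.1, STAR 2.7.5c, Bowtie2 2.2.5 and cutadapt 2.8, and the build GRCh38; settings are not given in the sources used here. The deposited table holds the authors' raw counts per gene, with a gene length; 1 record broken over 3 lines was left out. The authors also deposited TPM values, and all compared genes were within 1% of count over length scaled to the table's total. These TPM values served only as an alternative.

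Samples were grouped by their titles. TMM factors came from edgeR 4.0.16 (R 4.3.3) over the 3 libraries of an assay, from genes with a mean of at least 30 counts, applied to the full library totals. Log2 ratios used a pseudocount of 0.5. Their 95% intervals are exact conditional binomial (Clopper-Pearson) for input RNA and footprints and Poisson (delta method) for translation efficiency. Levels have exact Poisson intervals. With 1 library per group no p-value was computed. A limit of 3 counts corresponds to 3.25 to 6.61 CPM over the libraries. The code was tested on simulated data. Alternatives were total counts, DESeq2 1.42.0 size factors, other count minimums, another pseudocount, a 1.5-fold call, another input library and the authors' TPM. Coding lengths were not used here, so the planned scaling by them was not run. Gene positions and promoters are from RefSeq (GRCh38.p14), matched by symbol. Scripts ran in Python 3.11.15 with scipy 1.17.1, numpy 2.4.6, matplotlib 3.10.9 and pandas 2.3.3.

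The members and gene lists were chosen with earlier results of these data known. Named are all 10 members, METTL16, each gene of another list that was called in a comparison, and the 5 genes of nearest profile.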

Additional observations from a re-analysis of the deposited data

How the results depend on the processing

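The 12 counts of called members and the 6 medians were recomputed under other settings. None changed direction with DESeq2 size factors, a minimum mean of 10 counts or of 1 read, a pseudocount of 1, or, added after seeing the data, TMM factors from all genes; every one of the 18 stayed close to its value under these. For knockdown against control in starvation, total counts gave 1 member lower in input RNA and 0 higher in translation efficiency. The medians there became -0.21 in input RNA and -0.58 in footprints. That of translation efficiency went from 0.12 to -0.11, a change of sign. A call at 1.5-fold gave 1 lower in input RNA, 1 higher in footprints and 2 lower in translation efficiency there, and, for starved against complete medium, 2 higher in input RNA and 1 higher in translation efficiency. The authors' deposited TPM, with fold alone and no interval, gave, against control, 0 higher and 2 lower in input RNA (median -0.64), 7 lower in footprints (median -1.30) and 0 higher and 2 lower in translation efficiency, and 1 lower in footprints against complete medium. In that unit the median of all protein-coding genes itself shifted against control, by -0.48 for RNA, -1.07 for footprints and -0.59 for translation efficiency; the cause was not tested. With the complete-medium input library in place of the starved knockdown's, and the footprint and control libraries unchanged, translation efficiency had 1 member higher and 1 lower (median 0.19). With 1 library per condition no replicate could be left out. No paired analysis was possible because each group holds 1 library. The planned scaling by coding length was not run. Read numbers of 14 to 51 in input RNA (MCM6, HELLS, MCM2) limit what can be told of those genes.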
